A study of Schizosaccharomyces pombe with 6 samples.

Results

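The genes described here are 390 of the 6986 genes counted in fission yeast, Schizosaccharomyces pombe. They carry the gene type of non-coding RNA, and their product descriptions name neither an antisense nor an intergenic RNA, with the meiotic RNA gene sme2 left outside the rule. They comprise 43 prl genes, 4 meu genes, 11 genes with another name, 22 centromeric genes without a name and 310 genes known by an identifier alone. The samples were 3 libraries from an h+ mutant whose rad24 gene was deleted and replaced with the drug marker NatMX, and 3 libraries from an h+ wild type strain. Both strains grew vegetatively in the rich medium YES at 30 °C and were harvested in log phase for stranded poly(A)+ RNA sequencing. The study asked how Rad24, which belongs to the 14-3-3 family of phosphoprotein binders, bears on transcription across neighbouring genes and its early termination.

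Fission yeast transcribes many RNAs that encode no protein. Those named prl were recovered as poly(A)-bearing RNAs without a long open reading frame, and those named meu as RNAs whose level rises in meiosis. In vegetative cells the RNA-binding protein Mmi1 marks meiotic transcripts for removal by the nuclear exosome and binds the nam RNAs, while Mei2, a target of Rad24 binding, counteracts Mmi1 when cells enter meiosis. Other members are the RNA parts of ribonucleoproteins: ter1 is the telomerase RNA, srp7 the RNA of the signal recognition particle, rrk1 the RNase P RNA and mrp1 the RNase MRP RNA.

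Libraries held 21730112, 19396868 and 20000648 counts in the mutant and 15282140, 11539278 and 14560026 counts in wild type, so the shallowest mutant library exceeded the deepest wild type library. The rad24 gene itself had 27, 39 and 15 counts in the mutant libraries, against 22565, 18442 and 21135 in the wild type libraries. Of 4 measured markers of P cells, the mating type of h+ strains, map2, map3 and map1 were higher in the mutant (log2 6.45, 2.76 and 1.07) and sxa1, the most counted of them, was lower (log2 -0.77). Their summed level was 1521 to 1679 CPM in the mutant and 1468 to 1545 CPM in wild type. Of 8 M cell markers the mating type genes mat1-Mc and mat1-Mi had no count. The other 6 were all called, 4 higher and 2 lower in the mutant. Calls were common across the genome, at 78.3% of the 6084 genes tested (40.9% up and 37.4% down). The M cell markers summed to 98.1 to 101 CPM in the mutant and 116 to 129 CPM in wild type, with mam2 at log2 -3.04 and mfm2 at log2 2.42. The part of these marker genes in the members' levels was not tested. CPM are counts for each 1000000 counts of the scaled library size. The labels do not say that libraries of a genotype came from separate cultures, so p-values measure the spread between these libraries, which may be technical. In such bulk RNA, fewer cells with a transcript and less transcript per cell cannot be told apart.

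Most of these genes had few or no counts. In all 6 libraries 135 members were at 0, another 169 had counts but fell below the filter on low counts, and 86 members, 22.1%, were tested. The tested share was 84.6% of the 694 annotated antisense RNA genes and 83.9% of the 429 annotated intergenic RNA genes. A member with no count in any mutant library lies below 0.0464 CPM there, and 1 with no count in any wild type library lies below 0.0767 CPM, taking 3 counts over the group as the limit that a count of 0 allows. These limits cover counting error only.

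More members were seen in the mutant. At least 1 count was found for 217, 202 and 209 members in the mutant libraries, against 177, 160 and 177 in the wild type libraries. After all libraries were thinned to the size of the smallest, the numbers were 191, 190 and 196 in the mutant and 162, 160 and 167 in wild type. The lowest mutant library still lay above the highest wild type library. The difference between the thinned means, 192 ± 3.21 members in the mutant and 163 ± 3.61 in wild type (SD, n = 3 each), gave p = 0.1 in a two-sided exact permutation test, the smallest p that 3 libraries against 3 allow. With at least 10 counts, the thinned numbers were 74, 67 and 70 members in the mutant and 58, 56 and 59 in wild type. The same numbers were not taken over all genes, so whether members differ from other genes in this was not tested. Of all tested genes with a mean under 5 CPM, 40.4% were called higher in the mutant and 20.7% lower.

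The summed level of the members without prl53 overlapped between the groups in CPM. It was 360, 357 and 370 CPM in the mutant libraries and 348, 378 and 359 CPM in wild type. This scale is not that of the thinned numbers, since thinning used raw library totals and CPM use totals scaled by TMM factors. These factors were 1.049, 1.054 and 1.074 in the mutant and 0.9458, 0.9285 and 0.9595 in wild type. Unscaled, the counts without prl53 were 8195, 7289 and 7945 in the mutant and 5031, 4046 and 5014 in wild type. As a share of the raw totals, they were higher in every mutant library than in any wild type library. The means of 362 ± 6.96 CPM in the mutant and 362 ± 15.0 CPM in wild type (SD, n = 3 each) gave p = 0.9 in a two-sided exact permutation test. The gene prl53, left out of this sum, took 90.3%, 90.6% and 90.5% of all member counts in the mutant libraries and 94.0%, 94.2% and 94.2% in the wild type libraries.

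Among the 86 tested members, edgeR called 42 at an adjusted p below 0.05, of which 24 were higher and 18 lower in the mutant. That is 48.8% of the tested members, where 78.3% of all 6084 tested genes were called, 40.9% higher and 37.4% lower. A change of at least 2-fold was called for 22 members, 14 higher and 8 lower, or 25.6% against 12.8% of all genes (7.23% higher and 5.52% lower). The median log2 fold change was 0.10 for the members and 0.02 for all genes, and members ranged between -2.17 and 4.77. The groups did not overlap for 41 of the 86 members, against 80% of all tested genes.

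Level moved with these shares. Of 72 tested members averaging under 5 CPM, 32 were called (44.4%) and 19 were called and changed at least 2-fold (26.4%). They comprised 20 higher and 12 lower, of which 12 and 7 changed at least 2-fold, and the groups did not overlap for 31. Of all 735 tested genes under 5 CPM, 61.1% were called, 40.4% higher and 20.7% lower. Of the same genes 34.8% were called and changed at least 2-fold, 24.6% higher and 10.2% lower, and the groups did not overlap for 63.4%. The median level was 1.18 CPM for these members and 2.07 CPM for these genes. Of the 14 members with at least 5 CPM, 10 were called and 3 of these changed at least 2-fold. Of all 5349 genes with at least 5 CPM, 80.7% were called and 9.72% were called and changed at least 2-fold. The part of level in the difference between members and all genes was not tested further.

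The counts depended on the filter and on the scaling. Without the filter 66 of 255 tested members were called and 47 of these changed at least 2-fold, where 4835 of all 6627 tested genes were called. With a filter of 50 counts 22 of 29 tested members were called and 11 of these changed at least 2-fold, where 4539 of all 5658 tested genes were called. With library size alone as the scale, 31 members were called higher and 14 lower, and the median of all genes moved to 0.19 on the log2 scale. Leaving out the second wild type library moved the number of members tested from 86 to 103 and gave 49 calls, of which 34 were of at least 2-fold. Of the 42 calls with all libraries, 36 were kept in that fit.

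**Figure D1:**
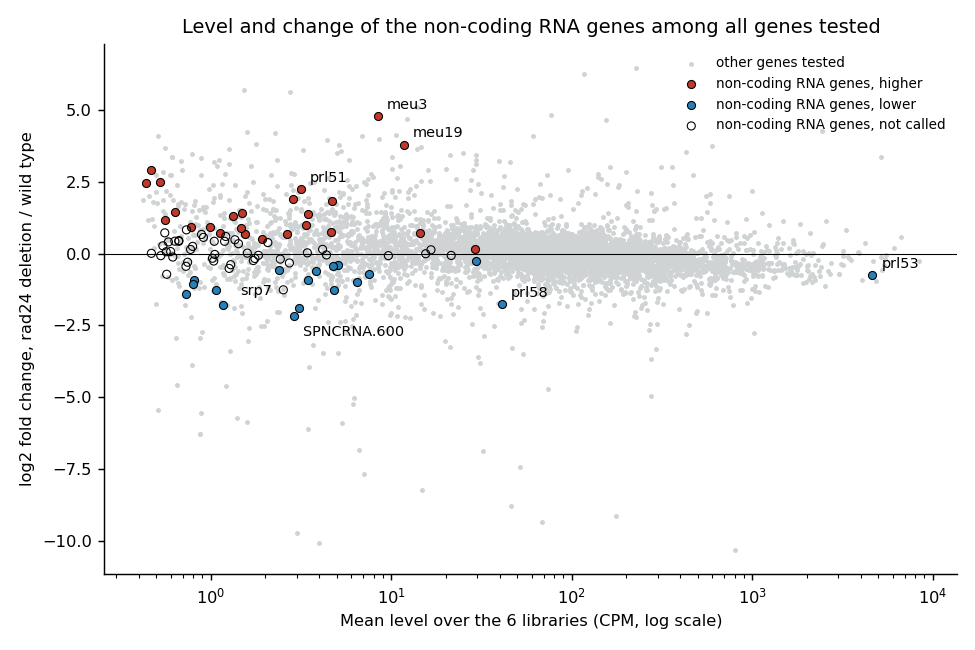
Mean CPM over the 6 libraries (x axis, log scale) and log2 fold change of the mutant over wild type (y axis) for every gene tested, with the 86 non-coding RNA genes drawn as larger circles. Most lie at the low end of the range, meu3 and meu19 have the highest log2 fold changes among them (4.77 and 3.79), and prl53 lies at the far right at -0.76.

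**Figure D2:**
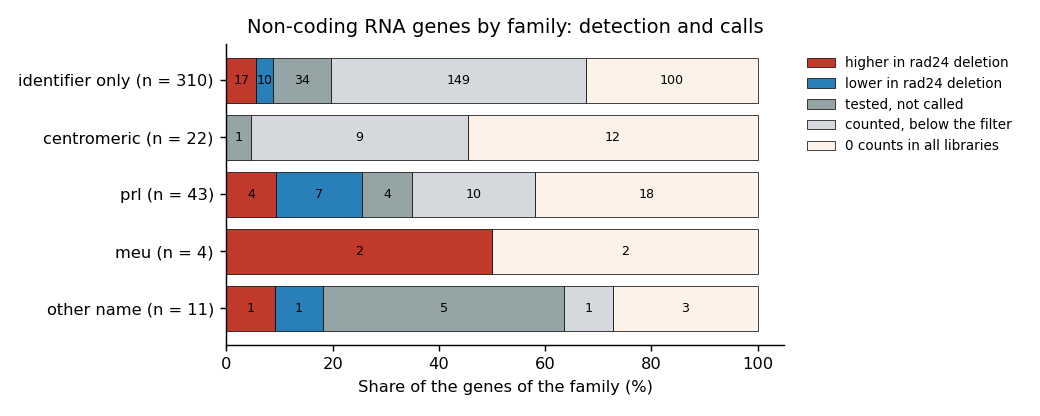
Share of each family (x axis, percent) that was called higher, called lower, tested without a call, counted below the filter, or at 0 in every library, with the number of genes printed in each bar. The 4 meu genes split into 2 called higher and 2 at 0, while 100 of the 310 genes with an identifier alone were at 0.

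Among tested members the 2 measured meu RNAs had the highest log2 fold changes. For meu3 (SPNCRNA.07) the mutant libraries had 16.2, 15.4 and 17.2 CPM and the wild type libraries 0.623, 0.747 and 0.430 CPM. The raw counts were 370, 315 and 369 in the mutant and 9, 8 and 6 in wild type. All mutant libraries lay far above all wild type libraries, and the fold change was 27.4 (log2 4.77, SE 0.17, edgeR adjusted p = 1.70e-11).

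For meu19 (SPNCRNA.29) the level was 22.3, 21.6 and 22.1 CPM in the mutant and 2.28, 1.40 and 1.00 CPM in wild type. The mutant libraries were close to one another and the wild type libraries spread more, without overlap, at a fold change of 13.9 (log2 3.79, SE 0.16, edgeR adjusted p = 6.20e-11). The authors' deposited table gives the log2 fold changes of meu3 and meu19 larger SEs, 0.39 and 0.32. The other meu members, meu11 and meu20, had no count in any library. In the ASM294v3 annotation meu20 overlaps imt2 on the same strand, and reads in such an overlap may be assigned to neither gene.

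Neither rise was shared by both neighbouring protein-coding genes. Beside meu3, nic1, a nickel transporter gene, was at -0.01 on the log2 scale (edgeR adjusted p = 0.841) and SPCC1884.01 fell by 0.44. Beside meu19, SPCC569.06 rose by 0.48 on the log2 scale and SPCC569.07 had -0.05 (edgeR adjusted p = 0.510).

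Most markers of late meiosis and spores were also higher in the mutant. Of 6 such genes (isp3, spo4, spo6, mfr1, meu14 and spn6) 5 were called higher and 1 (spo6) lower, where 40.9% of all tested genes were called higher and 37.4% lower. Their summed level was 128 to 208 CPM in the mutant and 33.2 to 34.3 CPM in wild type, and most of it was isp3, a spore wall gene, at 128 ± 37.2 CPM in the mutant and 19.0 ± 0.683 CPM in wild type (SD, n = 3 each). Their part in the levels of meu3 and meu19 was not tested. Of 9 genes for the removal of meiotic RNA and its control, 4 were called higher and 2 lower, to be read beside the same shares of all genes. The gene for Mei2 averaged 642 ± 3.67 CPM in the mutant and 78.9 ± 6.58 CPM in wild type, and that for Mmi1 averaged 108 ± 0.727 CPM in the mutant and 169 ± 8.54 CPM in wild type (SD, n = 3 each). Their log2 fold changes were 3.02 (SE 0.05) and -0.64 (SE 0.04), with edgeR adjusted p of 1.07e-14 and 2.03e-09.

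Among the Mmi1-associated nam RNAs, nam1 alone was called. Its level was 17.1, 17.2 and 19.3 CPM in the mutant and 10.3, 11.4 and 11.1 CPM in wild type. The groups were apart, with a fold change of 1.64 (log2 0.71, SE 0.09, edgeR adjusted p = 5.02e-06). The level of nam2 was 20.9, 20.4 and 21.7 CPM in the mutant and 20.8, 23.4 and 21.9 CPM in wild type, and that of nam3 was 8.64, 8.27 and 11.3 CPM in the mutant and 9.69, 9.89 and 10.1 CPM in wild type. They had log2 fold changes of -0.06 (SE 0.07) and -0.07 (SE 0.13), with edgeR adjusted p of 0.407 and 0.617 and overlapping groups. Whether nam1 differed from them was not tested. The genes nam5 and nam6 and the centromere boundary genes IRC1-L and IRC1-R had 0 or 1 count in each library.

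The gene nam1 lies upstream of byr2, on the same strand. The byr2 gene encodes a kinase of the mating and meiosis signalling cascade. It averaged 38.9 CPM in the mutant and 25.9 CPM in wild type, a log2 fold change of 0.58 (edgeR adjusted p = 2.99e-06). The same-strand genes mlo3, an RNA export factor gene that nam1 overlaps, and clg1, upstream of it, fell by 0.47 and 0.42 on the log2 scale. The RNA and its downstream gene were thus higher in the mutant, and the overlapping and upstream genes lower.

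The prl family had calls in both directions. Of its 43 genes 18 were at 0 and 15 were tested, with 4 called higher and 7 lower, and 5 of the 11 changed at least 2-fold. The called share was 73.3%, near the 78.3% of all tested genes (40.9% higher and 37.4% lower). The share called and changed at least 2-fold was 33.3%, against 12.8% of all tested genes and 34.8% of all tested genes under 5 CPM. The median level of the tested prl genes was 2.38 CPM. By far the most counted member was prl53 (SPNCRNA.53), at 3365, 3430 and 3523 CPM in the mutant and 5472, 6094 and 5881 CPM in wild type. Every wild type library exceeded every mutant library, and prl53 was 1.69-fold lower in the mutant (log2 -0.76, SE 0.05, edgeR adjusted p = 2.05e-08). In the ASM294v3 annotation prl53 overlaps the protein-coding gene SPAC27E2.11c on the same strand, and reads in such an overlap may be assigned to neither gene. SPAC27E2.11c averaged 0.199 CPM in the mutant and 0.411 CPM in wild type and was not tested. The downstream same-strand gene SPAC27E2.03c averaged 400 CPM in the mutant and 787 CPM in wild type (log2 -0.97, edgeR adjusted p = 9.88e-11), and the upstream gene mug155 rose by 0.78.

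The steepest fall among members above 5 CPM was that of prl58 (SPNCRNA.58). It had 19.0, 17.6 and 19.6 CPM in the mutant and 58.2, 65.7 and 65.1 CPM in wild type. The groups were well apart, and the level was 3.35-fold lower in the mutant (log2 -1.75, SE 0.06, edgeR adjusted p = 1.85e-11). Its neighbours SPAC20G8.02 and itr2, an inositol transporter gene, had log2 fold changes of -0.07 (edgeR adjusted p = 0.117) and 0.12 (edgeR adjusted p = 0.0214).

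Less counted members of the family fell too. For prl24 the values were 4.26, 4.50 and 4.24 CPM in the mutant and 7.82, 8.68 and 9.09 CPM in wild type (log2 -0.97, SE 0.12, edgeR adjusted p = 4.71e-06). The groups did not overlap, yet the adjusted p of prl24 in the authors' deposited table is 0.0991. For prl50, chosen after its values were seen, they were 1.10, 1.22 and 1.58 CPM in the mutant and 4.01, 5.41 and 5.23 CPM in wild type (log2 -1.89, SE 0.20, edgeR adjusted p = 9.51e-07).

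The highest log2 fold change in the family among genes whose higher group exceeded 5 CPM was that of prl51, at 4.78, 4.99 and 5.96 CPM in the mutant and 1.18, 1.12 and 1.00 CPM in wild type. The groups were apart (log2 2.25, SE 0.20, edgeR adjusted p = 1.51e-07). The meiotically upregulated gene mug42, downstream of prl51 on the same strand, averaged 3.54 CPM in the mutant and 1.69 CPM in wild type (log2 1.05, edgeR adjusted p = 0.000192). The call of prl1 was weak, at 30.0, 30.5 and 30.9 CPM in the mutant and 25.7, 29.6 and 27.6 CPM in wild type (log2 0.15, SE 0.06, edgeR adjusted p = 0.0409). It was lost in 5 of the 6 fits that left out a library.

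Some prl RNAs of under 1 CPM were also called: prl66 and prl43, chosen after their values were seen, had log2 fold changes of 2.49 (SE 0.45) and 2.47 (SE 0.50). Below the filter, prl39, also chosen after its values were seen, had 20, 10 and 16 counts in the mutant and 0, 0 and 1 in wild type. After scaling for depth the group ratio was 27.8, with an exact 95% interval of 4.75 to 1123 that covers counting error only.

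**Figure D3:**
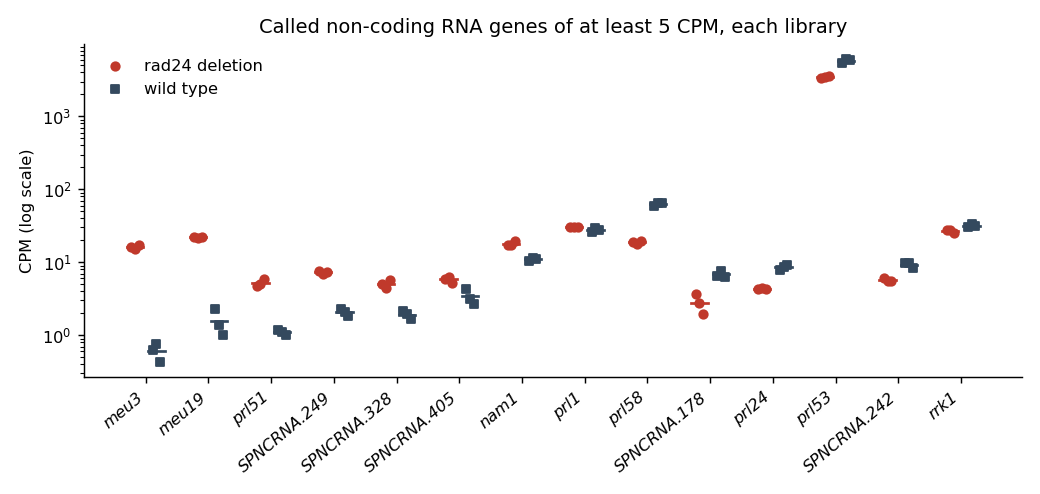
CPM of each library (y axis, log scale) for the 14 called non-coding RNA genes whose higher group averaged 5 CPM or more and whose groups do not overlap, with mutant libraries as circles left of wild type libraries as squares and a line at each group's mean. The first 8 genes lie higher in the mutant, from meu3 at 15.4 to 17.2 CPM in the mutant and 0.430 to 0.747 CPM in wild type to prl1, whose groups lie close together, and the last 6 lie lower.

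Of the RNAs of ribonucleoproteins, rrk1 alone was called. The mature forms of such RNAs largely lack poly(A) tails, so levels in poly(A)+ libraries need not follow their levels in the cell. The telomerase RNA ter1 had 18.1, 16.7 and 17.1 CPM in the mutant and 14.6, 16.6 and 16.5 CPM in wild type, with neighbouring ranges (log2 0.13, SE 0.08, edgeR adjusted p = 0.146). It was called with library size alone (0.29, adjusted p = 0.00396 in edgeR) and with upper quartile scaling (0.23, adjusted p = 0.0171 in edgeR).

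The RNase MRP RNA mrp1 had 16.0, 14.9 and 15.4 CPM in the mutant and 14.5, 17.5 and 14.8 CPM in wild type. The groups overlapped (log2 -0.01, SE 0.09, edgeR adjusted p = 0.959). The RNase P RNA rrk1 had 27.8, 27.6 and 24.9 CPM in the mutant and 30.6, 33.9 and 31.1 CPM in wild type, without overlap (log2 -0.24, SE 0.07, edgeR adjusted p = 0.00391). This call was lost with library size alone (-0.08) and with upper quartile scaling (-0.15). In the ASM294v3 annotation rrk1 overlaps pre10 on the opposite strand, which averaged 293 CPM in the mutant and 288 CPM in wild type. How strand was handled in counting is not stated, so reads of that pair cannot be told apart with certainty.

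A wild type library set apart from the others decided the value of srp7. Its counts were 28, 38 and 34 in the mutant and 124, 12 and 11 in wild type, or 1.23, 1.86 and 1.58 CPM in the mutant and 8.58, 1.12 and 0.787 CPM in wild type. The first wild type library was far above all others and the other wild type libraries lay below the mutant. With all libraries the log2 ratio was -1.26 (SE 0.62, edgeR adjusted p = 0.0799), and without the first wild type library it was 0.72 (edgeR adjusted p = 0.0686). Without the second or the third wild type library it was -1.61 (edgeR adjusted p = 0.0246) or -1.77 (edgeR adjusted p = 0.00773).

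Protein partners of these RNAs were called in both directions for most complexes. Of 7 signal recognition particle and receptor genes 4 were higher and 1 lower, with log2 fold changes between -0.11 (srp72) and 0.23, and srp14 at 0.20. Of 9 RNase P and MRP protein genes 3 were higher and 3 lower, with pop8 at 0.64 and rpp1 at -0.60. All 4 measured genes of the telomerase list were called higher, between 0.21 for trt1, the catalytic subunit gene, and 0.39 for pof8, which encodes an assembly factor. Of all tested genes 40.9% were called higher.

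**Figure D4:**
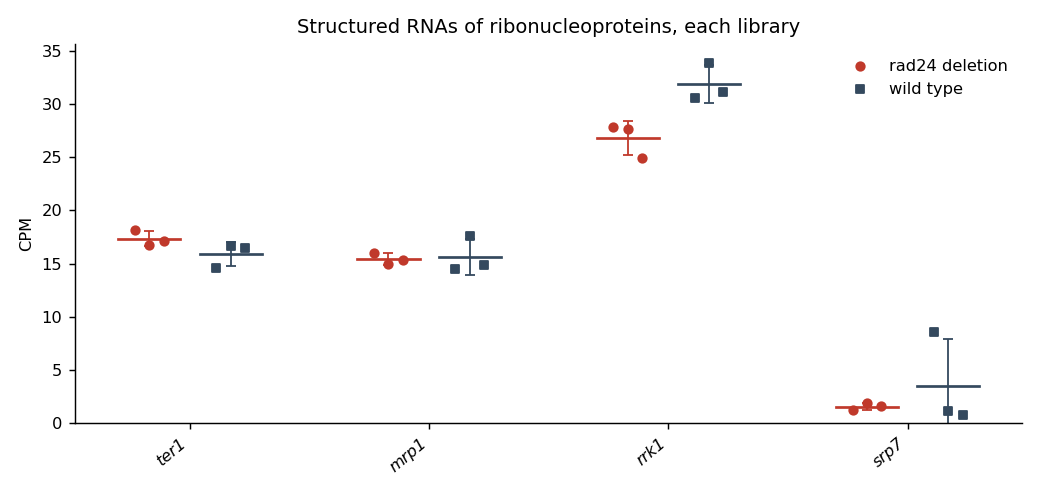
CPM of each library (y axis, linear from 0) for 4 RNAs of ribonucleoproteins, with mutant libraries as circles left of wild type libraries as squares, and lines and bars for the mean and SD (n = 3 each). For ter1 and mrp1 the groups lie close or overlap, rrk1 is lower in the mutant, and the first wild type library of srp7 stands at 8.58 CPM above the other 5.

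Centromeric genes had few counts in these libraries. Of the 22 without a name 12 were at 0, 9 were below the filter, and SPNCRNA.359 alone was tested, at -0.30 on the log2 scale (SE 0.44, edgeR adjusted p = 0.540). Transcripts of centromeric repeats match several places in the genome, and reads of that kind may be left out of such counts, so these levels are uncertain.

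Of the 310 members known by an identifier alone, 100 were at 0 and 61 were tested, with 17 called higher and 10 lower. The called share was 44.3%, below the 78.3% of all tested genes (40.9% higher and 37.4% lower). Of all tested genes under 5 CPM 61.1% were called. SPNCRNA.249 had 7.59, 6.90 and 7.40 CPM in the mutant and 2.28, 2.05 and 1.86 CPM in wild type (log2 1.82, SE 0.15, edgeR adjusted p = 7.92e-08). SPNCRNA.328 had 4.96, 4.40 and 5.68 CPM in the mutant and 2.14, 1.96 and 1.65 CPM in wild type (log2 1.39, SE 0.18, edgeR adjusted p = 8.38e-06). In both genes the groups were clearly apart. SPNCRNA.405 had 5.97, 6.26 and 5.26 CPM in the mutant and 4.29, 3.17 and 2.72 CPM in wild type, a smaller gap (log2 0.77, SE 0.17, edgeR adjusted p = 0.000877).

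Lower in the mutant were SPNCRNA.178, SPNCRNA.242 and others. SPNCRNA.178 had 3.64, 2.74 and 1.96 CPM in the mutant and 6.50, 7.65 and 6.30 CPM in wild type (log2 -1.27, SE 0.19, edgeR adjusted p = 3.26e-05). SPNCRNA.242 had 6.01, 5.58 and 5.59 CPM in the mutant and 9.69, 9.80 and 8.45 CPM in wild type (log2 -0.70, SE 0.11, edgeR adjusted p = 6.38e-05). The mutant libraries of SPNCRNA.178 spread more than those of SPNCRNA.242, and neither gene's groups overlapped.

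Among members of 5 CPM or more in the higher group no further identifiers met these conditions, but the lowest log2 fold change of any tested member was that of SPNCRNA.600, chosen after its values were seen. It is described as a transcript from the tco1 locus, which it overlaps on the same strand, and tco1 itself had no count. SPNCRNA.600 had 1.18, 0.685 and 1.21 CPM in the mutant and 4.57, 5.79 and 3.87 CPM in wild type, with groups apart (log2 -2.17, SE 0.23, edgeR adjusted p = 1.14e-06). The next protein-coding gene downstream on the same strand is rad25, which encodes the other 14-3-3 protein of fission yeast. It averaged 846 CPM in the mutant and 607 CPM in wild type (log2 0.48, edgeR adjusted p = 1.08e-07). The upstream gene cpp1 rose by 0.37.

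The other identifiers called with a change of at least 2-fold had few counts. SPNCRNA.197, SPNCRNA.348, SPNCRNA.199, SPNCRNA.264, SPNCRNA.115 and SPNCRNA.520 rose, with log2 fold changes between 1.01 (SPNCRNA.520) and 2.92 (SPNCRNA.197). SPNCRNA.525, SPNCRNA.189, SPNCRNA.240 and SPNCRNA.399 had values between -1.79 (SPNCRNA.525) and -1.06 (SPNCRNA.399). Of these 10, SPNCRNA.240 had overlapping groups, and the call of SPNCRNA.115 was lost in 4 of the 6 fits that left out a library. They are named because they passed the bound, after their values were seen. Below the filter, SPNCRNA.388, also chosen in that way, had 12, 3 and 4 counts in the mutant and 5, 73 and 18 in wild type, where the second wild type library held most of the counts.

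Neighbours in the genome were taken from the ASM294v3 annotation, in which 321 of the 390 members were found by identifier. Of these, 61 overlapped another gene on the same strand, 212 overlapped one on the opposite strand, and 90 overlapped none. Members at 0 in all libraries were 37 of the 61 with a same-strand overlap (60.7%), 51 of the 260 without one (19.6%) and 47 of the 69 not found (68.1%). Counting may leave out reads shared by overlapping genes, and the part of that step in the zeros was not tested. Of 47 members lying inside a counted gene of the opposite strand, 32 had counts.

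Across 78 tested members the log2 fold change and that of the nearest tested protein-coding gene had a Pearson correlation of 0.27 and a Spearman correlation of 0.23, a description over genes that share libraries and, in overlaps, reads. The signs were the same in 42 of the 78 pairs. For the 39 called members with such a neighbour, the neighbour was called in the same direction in 14 pairs and in the other direction in 9. Of all tested protein-coding genes, 41.9% were called higher and 39.5% lower.

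Arrangement on the strands is given by the same annotation. Of 24 called members whose downstream protein-coding neighbour lay on the same strand, that neighbour was called in the opposite direction for 11 and in the same direction for 6. Of 35 called members whose upstream neighbour pointed the other way (divergent), it was called in the opposite direction for 10 and in the same direction for 15. Of 16 called members whose downstream neighbour pointed the other way (convergent), it was called in the opposite direction for 3 and in the same direction for 9. Of 5 with the upstream neighbour on the same strand, it was called in the opposite direction for 3 and in the same direction for 2. These counts stand beside the shares of all protein-coding genes above, and whether the arrangements differ was not tested. Pairs of the first kind include SPNCRNA.264 at 1.30 beside tif223 at -0.59, SPNCRNA.188 at 0.69 beside utp11, a ribosome biogenesis gene, at -0.88, and SPNCRNA.600 beside rad25, on the log2 scale and chosen after their values were seen. The call of SPNCRNA.188 was lost in 4 of the 6 fits that left out a library. Over all tested members with a tested neighbour, Pearson correlations of the log2 fold changes were -0.03 for 53 pairs with the downstream neighbour on the same strand, 0.27 for 65 divergent pairs, 0.17 for 27 convergent pairs and -0.33 for 14 pairs with the upstream neighbour on the same strand.

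Some pairs moved together with large changes. SPNCRNA.488, chosen after its values were seen, had 4.26, 4.26 and 4.94 CPM in the mutant and 0.969, 1.77 and 1.00 CPM in wild type (log2 1.89, SE 0.22, edgeR adjusted p = 2.37e-06). Its divergent neighbour gdh2, a glutamate dehydrogenase gene, averaged 292 CPM in the mutant and 35.9 CPM in wild type (log2 3.01, edgeR adjusted p = 1.99e-14). On its other side SPCC338.18 rose by 2.64 on the log2 scale, so all 3 genes were higher in the mutant.

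Falls were paired as well. The uracil permease gene fur4, divergent from SPNCRNA.178, averaged 113 CPM in the mutant and 262 CPM in wild type (log2 -1.22, edgeR adjusted p = 8.83e-12). Divergent from prl50, the meiotic recombination gene meu13 fell by 0.97, while the downstream same-strand gene sey1 rose by 0.35. The gene SPNCRNA.1385, annotated as an intergenic RNA, overlaps SPNCRNA.328 on the opposite strand and rose by 1.54 on the log2 scale, near the 1.39 of its partner. Since no source used here states how strand was handled in counting, reads of that pair cannot be told apart with certainty.

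**Figure D5:**
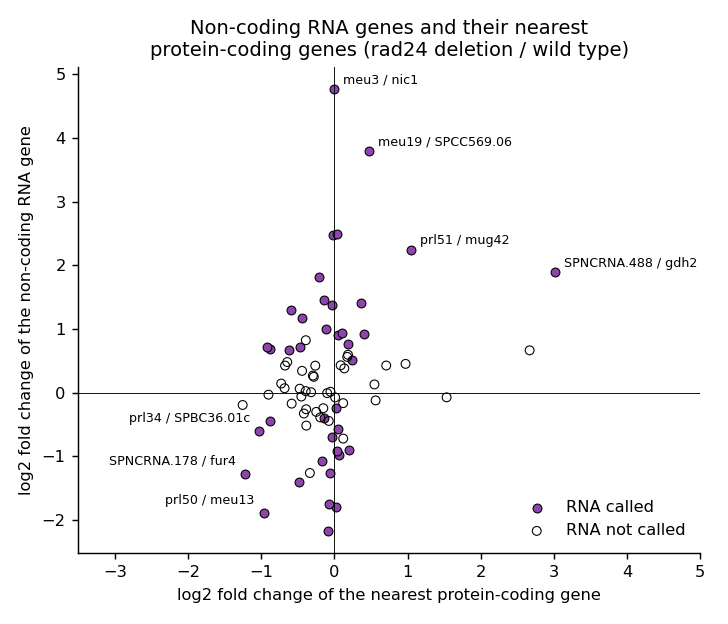
Log2 fold change (mutant over wild type) of 78 tested non-coding RNA genes (y axis) against that of the nearest tested protein-coding gene (x axis), with called RNAs filled. The pair of SPNCRNA.488 and gdh2 lies at the far right (3.01 and 1.89), while meu3 is at 4.77 above a neighbour near 0.

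The authors' deposited table calls 28 of the 86 tested members at an adjusted p below 0.05. All 28 were also called by edgeR with the same sign, and 14 more were called by edgeR alone, prl1 and prl24 among them. The log2 fold changes of the tested members differed from that table by at most 0.0882.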

How the data were processed

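Poly(A)+ RNA was measured in 3 rad24 deletion and 3 wild type libraries, grouped by their genotype labels. The tools were HTSeq 0.10.0, HISAT2 2.1.0, DESeq2 and SAMtools on build ASM294v2, per the submitters' processing notes. The strand setting was not given in the sources used. The authors deposited raw counts per gene (6987 rows, of which 1 repeated identifier without counts was left out) and a table of the comparison. Per the file headers, the deposited table holds a log2 fold change, its standard error, a test score, p-values and, as a signal not used here, mean normalized counts.

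Genes were tested in edgeR 4.0.16 (R 4.3.3, limma 3.58.1) by the quasi-likelihood test with TMM factors, filterByExpr and genotype as the only term. P-values were adjusted by the Benjamini-Hochberg method over all 6084 tested genes. Fold changes are mutant over wild type. Each SE was derived from the log2 fold change and the F statistic, and is smaller than that of the authors' deposited table for the genes compared. Steps were tested on simulated counts. Intervals and limits at a count of 0 cover counting error only.

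Members and lists were chosen with earlier results of these data known. Genes named are those with a literature name, the 12 largest rises and falls among called members without overlap between groups and averaging 5 CPM or more in the higher group (8 and 6 qualified), the 4 highest members, up to 2 genes of each partner list, the neighbours of these members, and rad24. Any other gene was picked with its values known, as said beside those picked for their values, or completes a group (nam2, nam3, nam5, nam6, IRC1-L, IRC1-R and SPNCRNA.359). Of the partner lists, the RNase P and MRP list is given without pop1, pop2 and pop3, whose names belong to other proteins (with them 4 of 12 were higher and 4 lower). Literature names that are not among the members have no value here.

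Alternatives were DESeq2 1.42.0, limma-voom, other scalings, other filters, thinning, a block for replicate number, fits leaving out each library, and members without overlaps. Neighbours come from the ASM294v3 annotation, whose build differs from that of the files, so no coordinates or sequences are given. Gene lengths were not used, so ranks, sums and bounds of CPM across genes are of counts and are not corrected for length.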

Additional observations from a re-analysis of the deposited data

How the results depend on the processing

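As reported above, 42 of the 86 tested members were called, 22 of them with a change of at least 2-fold. With a filter of 50 counts 22 of 29 tested members were called, 11 of at least 2-fold. Without a filter 66 of 255 were called, 47 of at least 2-fold. Of the 26 tested members that overlap no gene on either strand, 15 were called, 7 of at least 2-fold. Of all tested genes, 4539 of 5658 were called with the filter of 50 counts and 4835 of 6627 without a filter. The other alternatives gave 30 calls with thinned libraries to 45 with library size alone, and leaving out a library gave 34 to 49 calls and 22 to 34 of at least 2-fold. The number of members tested also moved, from 86 to 65 with thinned libraries and to between 83 and 105 when a library was left out. Over all genes 4467 (DESeq2) to 4874 (library size alone) were called, and 4547 to 4727 when a library was left out. With the replicate number as a block, 43 members were called, 22 of at least 2-fold, and 4753 genes in all. In that fit srp7 was called (-1.14). Correlations of same-numbered libraries, taken on deviations from the group mean, were -0.00136, -0.00287 and 0.0503. Those of differently numbered libraries lay between -0.0387 and 0.0387. Whether the numbers pair the libraries was not tested. Of the 17 named members tested, 12 kept direction and call under every alternative run. The exceptions were prl1, rrk1, ter1, srp7 and mrp1. All 12 were among the members named for being called without overlap between groups, a choice that itself favours such stability. The log2 fold change of mrp1, -0.01 in the report, was 0.16 with library size alone, 0.090 with upper quartile scaling and 0.0018 with limma-voom. When a library was left out it lay between -0.060 and 0.072 for mrp1 (above 0 without the second library of either genotype), and between -1.77 and 0.72 for srp7 (above 0 without the first wild type library). The call of prl1 was also lost with DESeq2 (adjusted p = 0.163), RLE factors and thinned libraries. Among members tested both with all libraries and with a library left out, 11 lost a call and 10 gained a call in some such fit. Calls of members tested only when a library was left out are not in these numbers. Upper quartile scaling moved the median of all genes to 0.12 on the log2 scale. Low counts limit the precision for most members. The causes of these changes were not tested.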
